A study of Mus musculus with 5 samples.

Results

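Transcripts of the mitochondrial respiratory chain and ATP synthase were followed across 5 Agilent arrays of RNA from cells sorted out of mdx mouse muscle. The members were the array's non-control probes whose gene name in the scanner files begins with Nduf plus a subunit letter and number, Sdha to Sdhd, Uqcr, Cox4 to Cox8 or Atp5. The rule took 115 probes of 85 genes, out of 55681 probes for 36388 genes and unnamed features. Of these members, 35 belong to complex I, 4 to complex II, 8 to complex III, 19 to complex IV and 15 to complex V, and 4 carry such a name in the array design without being a subunit.

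The mice were C57BL/6 with the mdx mutation in the dystrophin gene, a model of Duchenne muscular dystrophy, so the controls carry it too. For 45 days they had intraperitoneal injections of vehicle or of 0.6 mg/kg TSA (trichostatin A), which blocks histone deacetylases. Cells were sorted by flow cytometry on CD34 and α7-integrin: muscle stem cells (MuSC) were Sca1-negative and came from vehicle mice (1 array), while interstitial cells (Sca1+ cells) came from TSA mice (2 arrays) and from vehicle mice (2 arrays). The labels give neither ages nor the number of mice behind an array, so p-values reflect only how far these arrays lay apart, which may be technical variation.

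The respiratory chain passes electrons from NADH (complex I) and succinate (complex II) through ubiquinone to complex III, then through cytochrome c to complex IV, where oxygen is reduced to water. The proton gradient built on the way drives ATP synthase (complex V). Most subunits are encoded in the nucleus, a few in mitochondrial DNA, and complex IV has subunits with a muscle isoform and a widely expressed one. Muscle fibres are rich in these complexes, since contraction draws on the ATP they yield.

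A log2 level is the log2 of a probe's processed signal relative to the 75th percentile of its own array, so levels of different probes are not compared. That percentile was 240 in MuSC, 326 and 452 with TSA, and 235 and 165 with vehicle, and 58.5% to 66.9% of spots per array were well above background. The number of arrays limits the precision, and the MuSC array is assumed to vary like the Sca1+ arrays. Ly6a, the gene of Sca1, had a log2 level of 1.46 in MuSC, 5.89 and 5.71 in TSA cells, and 6.46 and 6.59 in vehicle cells. Itga7, the gene of the α7-integrin on which both sorts were gated, had 7.02 in MuSC, 4.53 and 4.59 in TSA cells, and 1.35 and 1.09 in vehicle cells. The vehicle arrays thus had the lowest Itga7 level, although the labels give both sorts as α7-integrin-positive. The summed signal of 17 skeletal muscle fibre genes, in multiples of the array's 75th percentile, was 143 in MuSC, 37.9 to 42.4 in TSA cells, and 6.98 to 7.16 in vehicle cells, where Myh2, Mylpf, Ttn and Casq1 were not well above background. That of 7 myogenic genes was 219 in MuSC, 29.1 to 30.8 in TSA cells, and 2.52 to 2.88 in vehicle cells, with Myf5 and Calcr not well above background in vehicle cells. Red-cell genes (4 on the array) summed to 15.5 in MuSC, 601 to 627 in TSA cells, and 39.1 to 40.9 in vehicle cells, and 5 mast-cell genes to 0.20 in MuSC, 25.6 to 27.8 in TSA cells, and 0.633 to 0.664 in vehicle cells. The 8 gate and fibroadipogenic genes summed to 166 in MuSC, 1207 to 1295 in TSA cells, and 2232 to 2878 in vehicle cells. Fewer cells of a type and less RNA per cell cannot be told apart in such bulk samples.

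Of the 85 members, 83 were well above background on all 5 arrays and were tested. On all 5 arrays, Cox7b2 and Cox8c, paralogues of complex IV subunits best known from testis, were not well above background. In MuSC against Sca1+ vehicle cells, 34 of the 83 members were higher by limma at an adjusted p under 0.05 and 0 were lower, while 10.5% of all 26077 genes tested were higher and 11.7% lower. At an unadjusted p under 0.05 the counts were 61 higher and 0 lower, against 17.1% and 18.7% of all genes. The MuSC array lay above both vehicle arrays for 79 members, below both for 2 and between them for 2, while 39.3% of all genes lay above both and 44.0% below both. The median log2 difference of the members was 0.78, a fold of 1.72, beside -0.04 over all genes. Of the marker genes above, 15 of 17 fibre genes and 7 of 7 myogenic genes were higher in MuSC too, and the part of fibre RNA in the members' values was not tested.

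The called members ranged from 0.83 (Uqcr10) to 3.14 (Cox7a1) on the log2 scale, and 20 of the 83 members were at least 2-fold higher. The order of the complexes by median difference was III (1.00), II (0.90), IV (0.83), V (0.78) and I (0.62), with 6 of 8, 2 of 4, 6 of 17, 5 of 15 and 15 of 35 members called. The count was far lower when any 1 of the 4 Sca1+ arrays was left out. The TSA arrays enter through the shared estimate of the spread. Leaving out an array also takes away a residual degree of freedom. The differences themselves do not use the TSA arrays. Without either of these, Cox7a1, Cox6a2 and Cox8b stayed at 3.14, 2.22 and -0.43, while the spread estimate and its degrees of freedom changed. Without a vehicle array the differences change as well. The lower counts there cannot tell dependence on that array from lost precision. Each of the 4 fits had fewer residual degrees of freedom. Cox7a1 and Cox6a2 were the 2 that passed in each of these fits, Cox5a and Sdhc passed in all but the fit without vehicle array 2, and no other member passed in all 4. The median difference was 0.74 to 0.81 over the same fits, and 0.74 within the slide that holds MuSC and vehicle array 1. The count was 53 with normexp background correction, 20 with median scaling and 5 with no filter on dim probes. With the slide as a block in the fit, 11 members lost their call and 1 gained one.

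**Figure D1:**
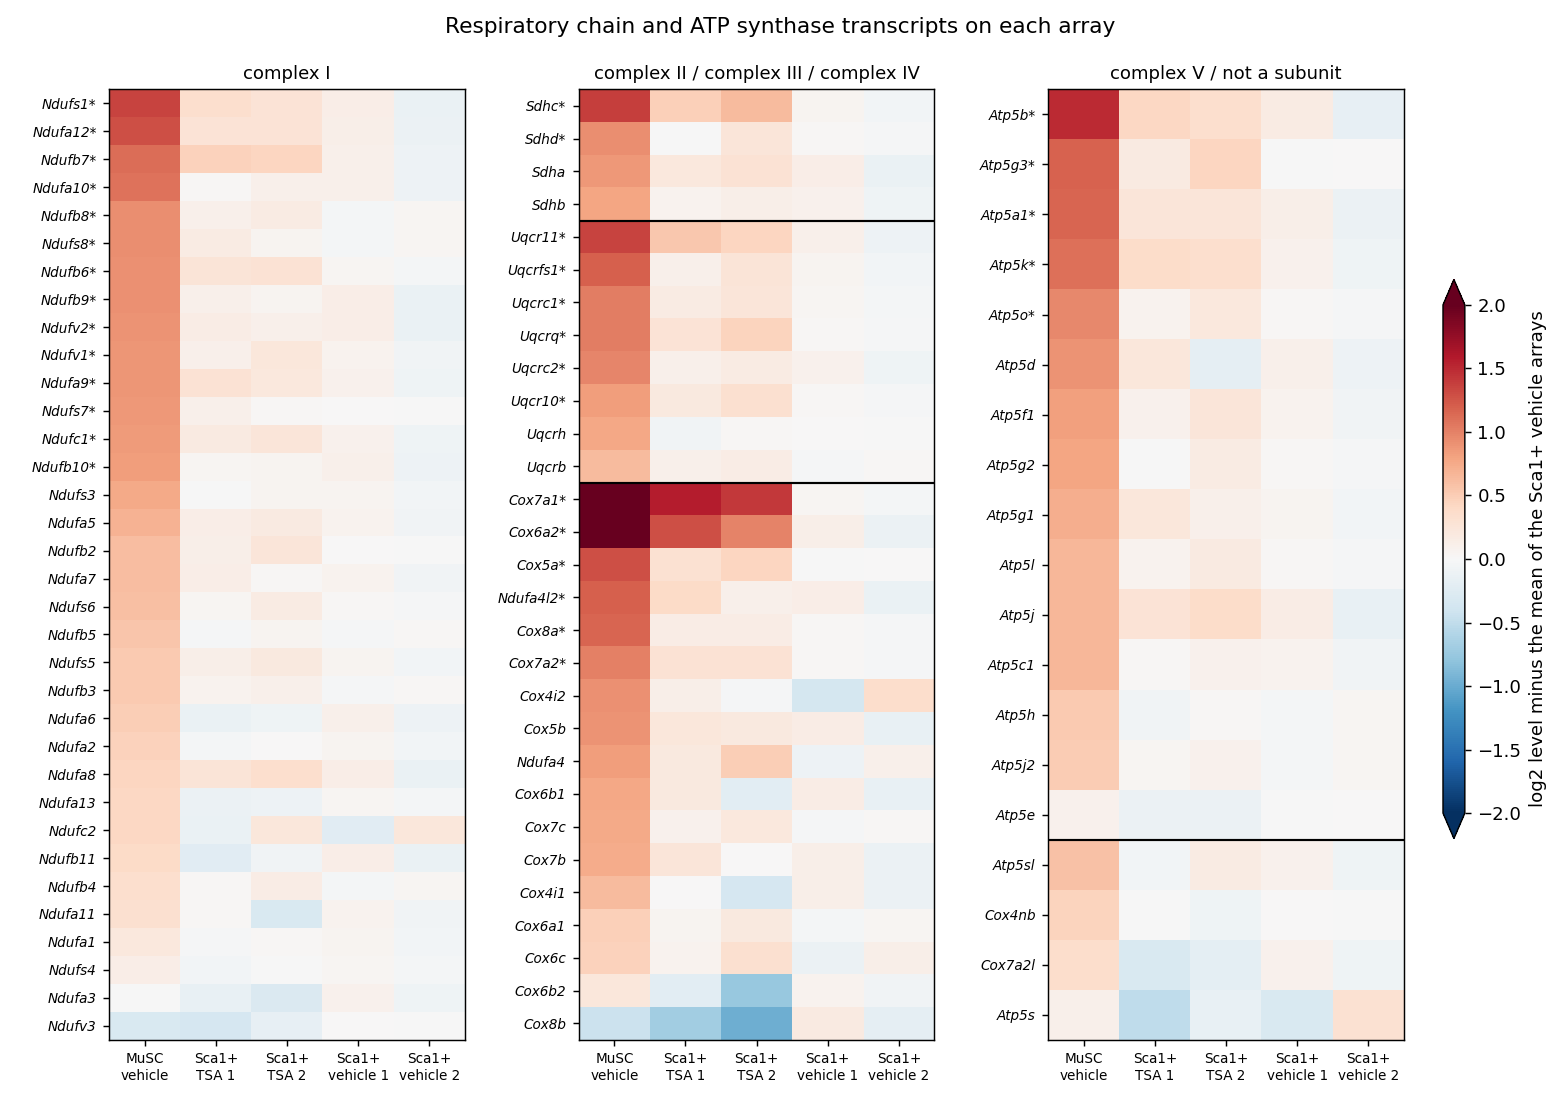
The log2 level of 82 of the 83 members measured, minus its mean over the Sca1+ vehicle arrays, is shown as colour for each array (columns) and gene (rows, by complex and by the difference in MuSC). Colours end at -2 and 2, an asterisk marks the 33 genes shown that were called higher in MuSC, and the MuSC column is red for nearly all genes while the TSA columns are pale except for Cox7a1, Cox6a2 and Cox8b.

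In complex I, the nuclear-encoded core subunits, which make up the electron path from NADH to ubiquinone, were mostly higher in MuSC. Ndufs1, the largest iron-sulphur subunit, had a log2 level of 4.64 in MuSC, against 3.42 and 3.17 in Sca1+ vehicle cells. Its difference was 1.35 ± 0.21 (SE; limma adjusted p = 0.0174). The MuSC value was above both vehicle values. Ndufs7, Ndufs8, Ndufv1 and Ndufv2 also passed, with differences of 0.86 to 0.92. Ndufs3, part of the matrix arm, did not pass at 0.76 ± 0.18 (limma adjusted p = 0.0528). The median difference was 0.90 over the core subunits and 0.54 over the accessory subunits.

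Among the accessory subunits, which surround the core and support its assembly and stability, Ndufa12 had the largest difference. It had 5.39 in MuSC, against 4.20 and 3.98 in vehicle cells (1.30 ± 0.20, limma adjusted p = 0.0177), with no overlap. Ndufb7, Ndufa10 and Ndufb8 followed, with differences of 1.12, 1.09 and 0.93. Ndufv3, an accessory subunit of the flavoprotein module, stood on the other side, with 5.56 in MuSC, against 5.87 and 5.85 in vehicle cells (-0.30 ± 0.19, limma adjusted p = 0.329). Its MuSC value was below both vehicle values on the brighter probe, while its other probe gave 0.18, so its sign depends on the probe. Ndufa3 had a difference of -0.00 ± 0.20, its MuSC level of 5.28 lying between 5.37 and 5.19 in vehicle cells.

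Complex II, succinate dehydrogenase, has no mitochondrially encoded subunit and also works in the citric acid cycle. Sdhc, a membrane anchor, had 4.52 in MuSC, against 3.20 and 3.08 in vehicle cells, and rose by 1.38 ± 0.19 (limma adjusted p = 0.0139). Its other probe gave 1.34. The other anchor, Sdhd, rose by 0.93 ± 0.21 (limma adjusted p = 0.0440). The flavoprotein Sdha (0.86 ± 0.21) and the iron-sulphur protein Sdhb (0.80 ± 0.19) missed the threshold, at limma adjusted p = 0.0570 and 0.0537. The MuSC array was above both vehicle arrays for all 4.

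Complex III passes electrons from ubiquinol to cytochrome c, and 6 of its 8 nuclear-encoded members were called. The Rieske iron-sulphur protein Uqcrfs1 had 4.95 in MuSC, against 3.82 and 3.70 in vehicle cells (1.19 ± 0.19, limma adjusted p = 0.0199). The core proteins Uqcrc1 and Uqcrc2 rose by 1.02 ± 0.18 and 0.98 ± 0.19. Uqcr11, the smallest subunit, had the complex's largest difference, with 6.28 in MuSC, against 5.04 and 4.84 in vehicle cells (1.34 ± 0.20, limma adjusted p = 0.0163). In each of these genes the MuSC value lay above both vehicle values. Uqcrb and Uqcrh missed the threshold, at 0.63 ± 0.18 and 0.77 ± 0.18. The 250 bases before the start of Uqcr11 are shown because it leads its complex in both comparisons. They lie at chr10:80406822-80407071 on the minus strand (GRCm38.p6, from RefSeq, 5′ to 3′ along the gene). Capitals mark CCGGAAG, the core bound by ETS factors such as GABP, at -66 to -60 from the start.
Uqcr11: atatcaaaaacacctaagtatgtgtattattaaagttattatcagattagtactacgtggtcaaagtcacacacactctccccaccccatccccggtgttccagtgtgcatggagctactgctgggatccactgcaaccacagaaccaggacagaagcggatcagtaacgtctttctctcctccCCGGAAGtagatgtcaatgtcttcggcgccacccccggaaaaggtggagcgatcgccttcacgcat

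In complex V, the catalytic beta subunit Atp5b had the largest difference, with 7.95 in MuSC, against 6.63 and 6.29 in vehicle cells (1.49 ± 0.23, limma adjusted p = 0.0176). The alpha subunit Atp5a1 had 6.73 in MuSC, against 5.68 and 5.44 in vehicle cells (1.17 ± 0.20, limma adjusted p = 0.0235). The MuSC array exceeded both vehicle arrays in both genes. Of the central stalk, Atp5c1 (gamma) and Atp5d (delta) had differences of 0.67 ± 0.19 and 0.90 ± 0.26 and were not called. Atp5e (epsilon) was the lowest of the complex, at 0.09 ± 0.18. The proton-carrying c ring is made of 1 protein encoded by 3 genes. Of these, Atp5g3 rose by 1.18 ± 0.20 (limma adjusted p = 0.0234), while Atp5g1 and Atp5g2 had 0.72 ± 0.19 and 0.78 ± 0.19 and were not called. Atp5o of the peripheral stalk and the membrane subunit Atp5k were the other called members, at 0.97 and 1.09. The promoter of Atp5b is shown because that gene leads the widely expressed members. It lies at chr10:128083057-128083306 on the plus strand (GRCm38.p6, from RefSeq). Capitals mark 5 matches to CCAAT, 1 of them on the reverse strand, and 1 to CAGCTG, an E-box of the kind that myogenic factors bind.
Atp5b: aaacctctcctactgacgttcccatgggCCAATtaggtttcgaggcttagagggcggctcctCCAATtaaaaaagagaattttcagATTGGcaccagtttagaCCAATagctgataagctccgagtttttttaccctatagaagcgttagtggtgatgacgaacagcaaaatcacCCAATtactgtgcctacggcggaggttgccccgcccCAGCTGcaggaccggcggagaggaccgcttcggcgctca

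Complex IV held both the largest and the lowest differences of all members, in its isoform genes. Cox7a1, the heart and skeletal muscle form of subunit VIIa, had a log2 level of 2.43 in MuSC, 0.87 and 0.71 in Sca1+ TSA cells, and -0.66 and -0.75 in Sca1+ vehicle cells. The 3 groups did not overlap. The difference was 3.14 ± 0.19 in MuSC (8.79-fold, limma adjusted p = 0.00222, and 5.83-fold with normexp) and 1.50 ± 0.16 with TSA (2.82-fold, limma adjusted p = 0.0261). Cox7a2, the widely expressed form, had 5.24 in MuSC, 4.53 and 4.52 with TSA, and 4.26 and 4.22 with vehicle. It rose by 1.00 ± 0.18 in MuSC (limma adjusted p = 0.0244) and differed by 0.28 ± 0.14 with TSA (limma adjusted p = 0.309). Both comparisons share the vehicle arrays, so they are not independent of each other. The promoters of this pair are shown to set the 2 isoforms side by side, each 250 bases before the gene's start and 5′ to 3′ along it (GRCm38.p6, from RefSeq). That of Cox7a1 lies at chr7:30183921-30184170 on the plus strand and that of Cox7a2 at chr9:79759854-79760103 on the minus strand. Capitals mark CCAAT read on the reverse strand, found 2 times for Cox7a1, and none of the 6 motifs searched was found for Cox7a2.
Cox7a1: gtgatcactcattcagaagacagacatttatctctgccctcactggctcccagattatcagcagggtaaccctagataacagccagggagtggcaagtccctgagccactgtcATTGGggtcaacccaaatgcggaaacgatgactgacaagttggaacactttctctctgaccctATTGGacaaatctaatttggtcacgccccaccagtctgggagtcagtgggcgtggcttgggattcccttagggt
Cox7a2: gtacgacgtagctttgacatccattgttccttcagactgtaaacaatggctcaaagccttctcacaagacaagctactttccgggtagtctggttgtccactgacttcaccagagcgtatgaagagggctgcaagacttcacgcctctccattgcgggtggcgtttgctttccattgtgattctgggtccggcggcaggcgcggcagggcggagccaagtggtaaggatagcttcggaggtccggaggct

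Cox6a2, the heart and skeletal muscle form of subunit VIa, had 0.06 in MuSC, -0.88 and -1.18 with TSA, and -2.05 and -2.28 with vehicle, again with no overlap of groups. It rose by 2.22 ± 0.23 in MuSC (4.67-fold, limma adjusted p = 0.00722), which was 1.22 with normexp (2.33-fold), and differed by 1.14 ± 0.19 with TSA, which missed the threshold (limma adjusted p = 0.0717). Its partner Cox6a1 differed by 0.47 ± 0.19 in MuSC and 0.12 ± 0.15 with TSA and was called in neither. Cox8b, the heart and skeletal muscle form of subunit VIII, had -0.19 in MuSC, -0.46 and -0.74 with TSA, and 0.43 and 0.06 with vehicle. All values from MuSC and TSA cells lay below both vehicle values, with differences of -0.43 ± 0.26 in MuSC (limma adjusted p = 0.314) and -0.84 ± 0.21 with TSA (limma adjusted p = 0.137), called among the alternatives only with normexp (-0.64, limma adjusted p = 0.0353). Its partner Cox8a had 8.10 in MuSC, against 6.96 and 6.90 with vehicle, and rose by 1.17 ± 0.18 (limma adjusted p = 0.0171). Cox8b is also known from brown fat. The summed signal of 6 brown adipocyte genes was 3.25 in MuSC, 10.1 to 10.2 with TSA, and 14 to 15 with vehicle. Ucp1 and Elovl3 were not well above background in any group, nor was Cidea with vehicle. Of the 4 genes tested, 3 had a difference above 0 in MuSC and 1 below it (median 0.30, lowest -2.40). With TSA, 1 was above 0 and 3 were below (median -0.29). The part of brown fat cells in the values of Cox8b was not tested. The promoter of Cox8b is shown as the muscle isoform with the other sign. It lies at chr7:140900447-140900696 on the minus strand (GRCm38.p6, from RefSeq), and capitals mark CAGCTG at -19 to -14.
Cox8b: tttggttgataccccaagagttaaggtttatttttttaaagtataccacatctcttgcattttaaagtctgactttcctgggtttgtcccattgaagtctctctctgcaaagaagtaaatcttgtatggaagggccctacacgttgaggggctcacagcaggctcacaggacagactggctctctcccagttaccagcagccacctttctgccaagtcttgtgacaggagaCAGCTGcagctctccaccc

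The probes of the isoform pairs shared 17 to 21 of 60 bases at their best alignment without gaps. In mm9, the build of the array files, the Cox7a1 probe is placed at chr7:30970337-30970948, the Cox6a2 probe at chr7:135349160-135349219 and the Cox8b probe at chr7:148084852-148084911. The other isoform pairs of complex IV were compared likewise. Ndufa4l2, induced by hypoxia in other cells, had 4.71 in MuSC, against 3.66 and 3.39 with vehicle (1.19 ± 0.24, limma adjusted p = 0.0347). Its partner Ndufa4 differed by 0.83 ± 0.23 and was not called. Cox4i2, known from lung and from pericytes, had 1.80 in MuSC, against 0.54 and 1.23 with vehicle (0.92 ± 0.34), and Cox4i1 differed by 0.63 ± 0.25. Cox6b2, known from testis, differed by 0.22 ± 0.30 and Cox6b1 by 0.78 ± 0.28. Among the other widely expressed subunits, Cox5a rose by 1.30 ± 0.18 (limma adjusted p = 0.0141), with 6.43 in MuSC, against 5.13 and 5.14 with vehicle. Cox6c had the smallest difference of these, at 0.45 ± 0.22.

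**Figure D2:**
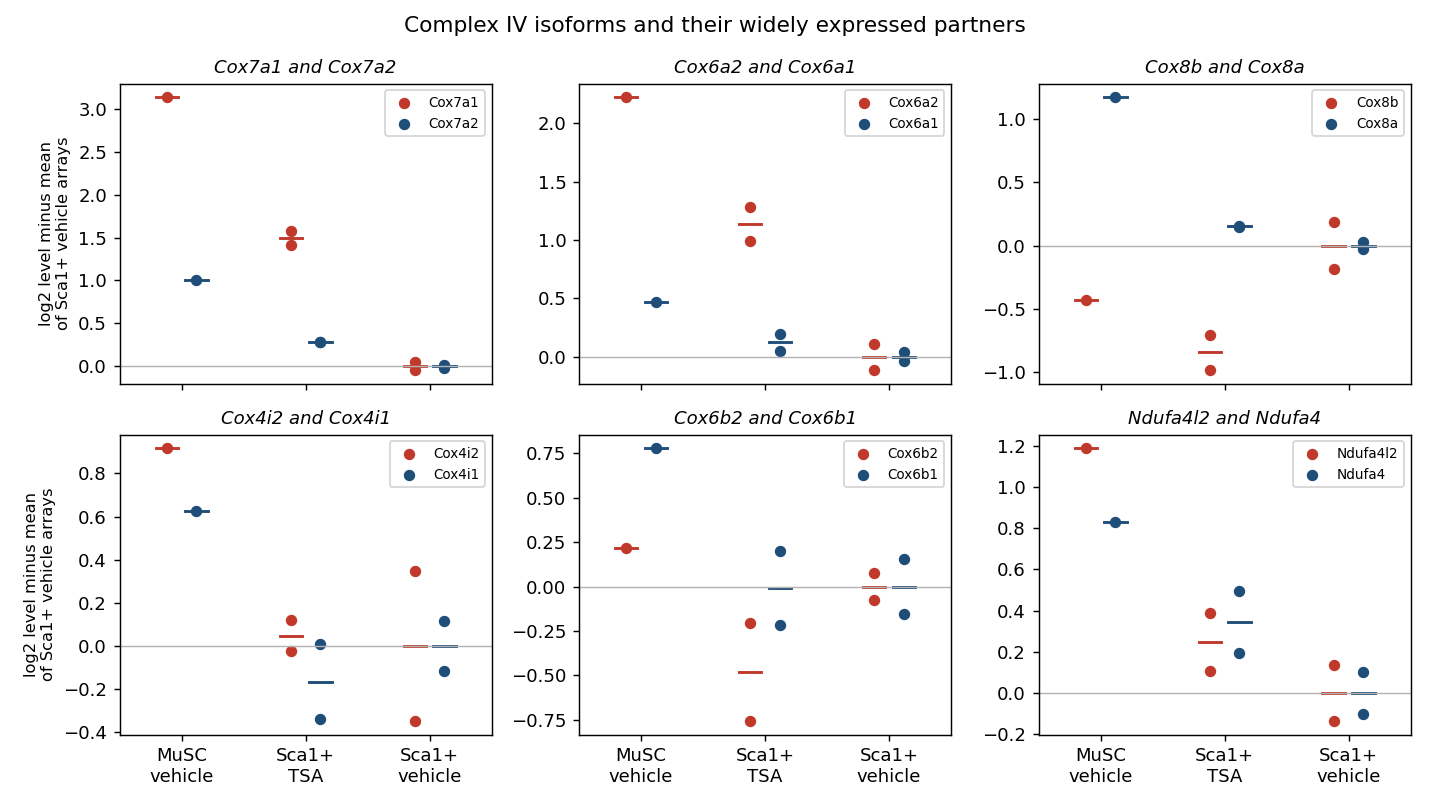
Each panel shows the log2 level, minus the gene's mean over the Sca1+ vehicle arrays, of a complex IV isoform (red) and its widely expressed partner (blue) on the MuSC array, the 2 TSA arrays and the 2 vehicle arrays. Points are arrays, short lines are group means, and the vertical scales differ between panels. Cox7a1 and Cox6a2 stand highest in MuSC and next highest with TSA, while Cox8b stands below vehicle in both.

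With TSA, the members as a whole differed little in Sca1+ cells. Of 83 members, 1 was higher by limma at an adjusted p under 0.05 (Cox7a1) and 0 were lower, while 2.71% of 26080 genes were higher and 0.268% lower. At an unadjusted p under 0.05, 5 members were higher and 1 was lower, where 10.4% and 12.7% of all genes were. The median log2 difference was 0.12 over the members and -0.13 over all genes, and 51 of the 83 members lay within 0.2 of no difference. The median was 0.07 between the arrays of the first slide and 0.19 between those of the second. It was 0.22 to 0.30 with normexp correction, quantile or median scaling and the deposited values, and the count was 5 higher and 1 lower with normexp, and 0 with no filter. Both TSA arrays lay above both vehicle arrays for 45 members and below both for 8, and the arrays overlapped for 30. Of all genes, 22.9% lay above and 36.4% below.

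Cox7a1 was called with all 4 Sca1+ arrays in the fit, and the call was lost when any 1 of them was left out. Its difference was 1.53 on the first slide and 1.46 on the second, and 1.42 to 1.58 when any 1 of these arrays was left out. Leaving out an array also takes away a residual degree of freedom, and the SE of Cox7a1 was then 0.20 to 0.22 instead of 0.16. These fits thus cannot tell dependence on an array from lost precision. With no filter on dim probes the adjusted p of Cox7a1 was 0.0870. With the slide, which is also the replicate number, as a block, 2 members were called, since Cox6a2 then passed (1.14, limma adjusted p = 0.0445). Cox6a2 also passed with median scaling (1.23, limma adjusted p = 0.0190) and with the deposited values (1.21, limma adjusted p = 0.0459), while with normexp its difference was 0.44 (limma adjusted p = 0.111). Of the 17 skeletal muscle fibre genes, 13 were higher with TSA and 15 in MuSC at an adjusted p under 0.05. Of 6 smooth muscle genes, 6 were higher in each comparison, and their summed signal was 1482 in MuSC, 509 to 557 with TSA, and 27.0 to 32.1 with vehicle, where Lmod1 and Myocd were not well above background. The part of these marker genes' cells in the values of Cox7a1, Cox6a2 and the other members was not tested.

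The members next to Cox7a1 and Cox6a2 with TSA were of complexes II, III and I. Sdhc had 3.62 and 3.77 with TSA, against 3.20 and 3.08 with vehicle (0.55 ± 0.16, unadjusted p = 0.0218 by limma, adjusted p = 0.159). Uqcr11 had 5.48 and 5.37 with TSA, against 5.04 and 4.84 with vehicle (0.49 ± 0.16, limma adjusted p = 0.193). Ndufb7, an accessory subunit of complex I, had 5.0 on both arrays with TSA, against 4.66 and 4.47 with vehicle (0.45 ± 0.16, limma adjusted p = 0.206). In all 3 genes both TSA arrays lay above both vehicle arrays, yet none passed the adjusted threshold. The largest difference of complex V was that of Atp5b, with 6.87 and 6.79 with TSA, against 6.63 and 6.29 with vehicle (0.37 ± 0.19, limma adjusted p = 0.304). The lowest of each complex, besides Cox8b, were Ndufv3 (-0.25 ± 0.15), Sdhb (0.09 ± 0.16), Uqcrh (-0.02 ± 0.15) and Atp5e (-0.12 ± 0.14).

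Of the complex I core subunits, Ndufs1 had the largest difference with TSA (0.30 ± 0.17) and Ndufs3 the lowest (0.02 ± 0.15), and neither was called. By complex, the TSA medians were 0.08 for I, 0.19 for II, 0.19 for III, 0.15 for IV and 0.15 for V. They depended on the scaling, at 0.26 to 0.41 with normexp, 0.20 to 0.34 with quantile normalization, 0.18 to 0.28 with median scaling and 0.20 to 0.33 with the deposited values. For complex III, both TSA arrays exceeded both vehicle arrays in 7 of 8 members, the exception being Uqcrh. In complex I this held for 17 of 35 members, and 3 lay below. Of all genes, 22.9% lay above both vehicle arrays and 36.4% below both. Standard errors of single members were 0.14 to 0.28 on this scale, so differences of the size of these medians were not detectable gene by gene. The paralogues Cox4i2 (0.05 ± 0.28), Cox6b2 (-0.48 ± 0.24) and Ndufa4l2 (0.25 ± 0.20) were not called.

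**Figure D3:**
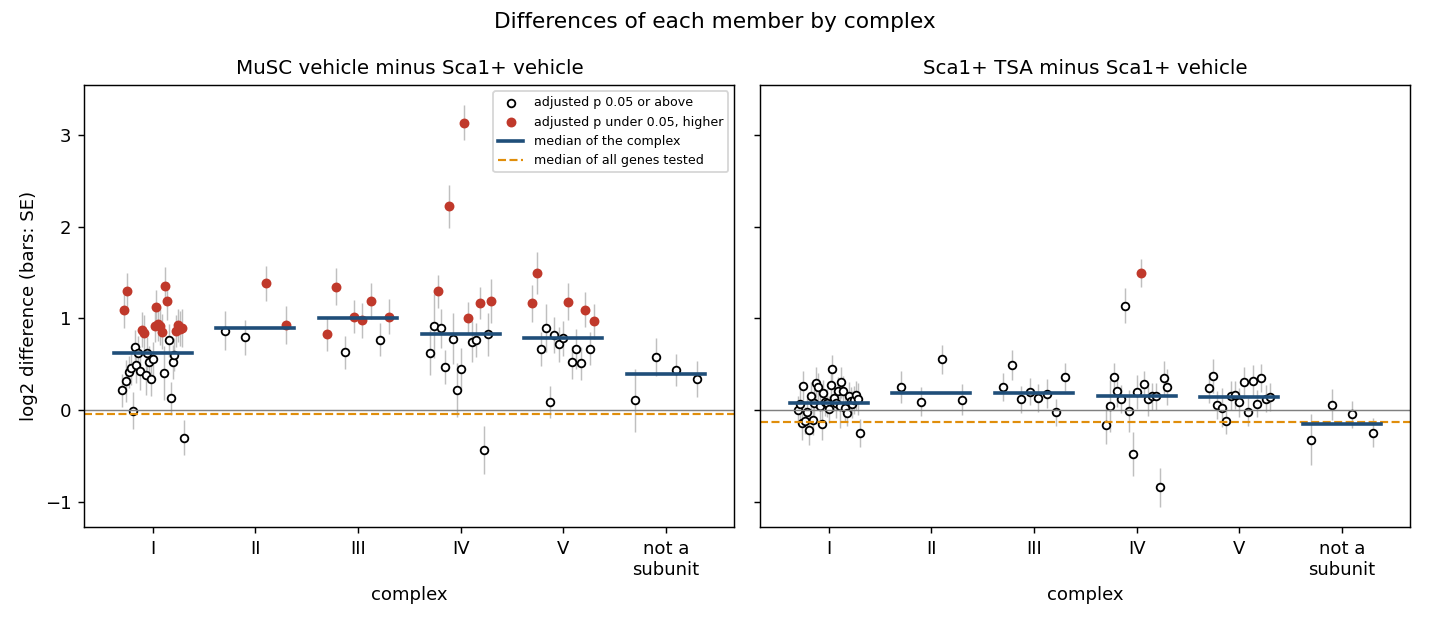
Log2 differences of the 83 members, MuSC vehicle minus Sca1+ vehicle on the left and Sca1+ TSA minus Sca1+ vehicle on the right, by complex. Points are genes with their SE, filled where limma's adjusted p was under 0.05, blue lines are medians of a complex and the dashed line is the median of all genes tested (-0.04 in MuSC, -0.13 with TSA). Complex medians lie between 0.62 and 1.00 in MuSC and between 0.08 and 0.19 with TSA.

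The 4 members that are not subunits were not called in either comparison. They are Cox4nb, a subunit of the membrane protein insertion complex of the endoplasmic reticulum, Atp5s, a coupling factor of ATP synthase, Atp5sl, an assembly factor of complex I, and Cox7a2l, which links complexes III and IV into supercomplexes. Their median difference was 0.39 in MuSC and -0.15 with TSA. Cox7a2l had 6.56 in MuSC, 5.91 and 6.03 with TSA, and 6.30 and 6.13 with vehicle. It lay above both vehicle arrays in MuSC (0.34 ± 0.20) and below both with TSA (-0.25 ± 0.16).

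Several probes measured 23 of the members, and most gave like values. In MuSC the probes of a gene spanned a median of 0.10 on the log2 scale and at most 0.48, with opposite signs for Ndufv3 alone. In a fit with each probe on its own, calls differed between probes for Ndufb5 (0.56 to 0.93), Ndufb6 (0.84 to 0.92) and Uqcrq (0.77 to 1.02). There, no probe of Uqcr10 passed, its brightest having a limma adjusted p of 0.0528, while the main fit called Uqcr10 (limma adjusted p = 0.0437). With TSA, signs differed for Atp5h (-0.02 to 0.06), Cox7c (-0.35 to 0.15), Ndufb5 (-0.08 to 0.01) and Uqcrh (-0.02 to 0.06).

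Genes that work with the members were compared in the same fits. Of 17 genes of the citric acid cycle and pyruvate dehydrogenase, 11 were higher in MuSC and 0 lower, with a median difference of 1.08. Idh2 and Idh3a, isocitrate dehydrogenases using NADP and NAD, rose by 1.72 ± 0.24 and 1.49 ± 0.18. Of 18 measured electron carriers and ADP/ATP exchange genes, 7 were higher and 0 lower (median 0.68), led by cytochrome c, Cycs (1.90 ± 0.19), and the ADP/ATP carrier Slc25a5 (1.64 ± 0.18). The list of 43 assembly factors had 6 higher and 0 lower (median 0.21), led by Ndufaf4 (1.23) and Lrpprc (1.12). That list holds Ndufab1, the acyl carrier subunit of complex I and not an assembly factor, and without it 5 of 42 were higher. Of 78 mitochondrial ribosomal genes, 9 were higher and 0 lower (median 0.48), led by Mrps6 (1.50) and Mrps22 (1.36). Of all genes, 10.5% were higher and 11.7% lower. At this adjusted threshold the share higher among assembly factors and ribosomal genes was near that of all genes. At an unadjusted limma p under 0.05, 32 ribosomal genes and 10 assembly factors were higher, and 0 and 1 lower. The shares of all genes were 17.1% and 18.7%. The MuSC array lay above both vehicle arrays for 65 ribosomal genes and 25 assembly factors, and below both for 7 and 8. Over all genes these shares were 39.3% and 44%. With TSA, 0 genes of these 4 lists were called by limma, and at an unadjusted p under 0.05, 1, 3, 2 and 3 were higher and 0, 0, 1 and 1 lower, where 10.4% and 12.7% of all genes were. The TSA medians were 0.22, 0.17, -0.02 and 0.04 in the same order of lists. The largest TSA differences were 0.47 for Idh3a and 0.37 for Mdh2, 0.80 for Cycs and -0.78 for Ckmt1, -1.05 for Timmdc1 and -0.84 for Lyrm7, and 0.76 for Mrps6 and -0.73 for Mrps36-ps1. By its name Mrps36-ps1 is a pseudogene, and it is counted among the 78 ribosomal genes.

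Of 17 regulators of mitochondrial biogenesis, 5 were higher in MuSC and 0 lower (median 0.44), where 10.5% of all genes were higher and 11.7% lower. With TSA 0 regulators were called by limma, and at an unadjusted p under 0.05, 4 were higher and 1 lower, against 10.4% and 12.7% of all genes. Ppargc1a, the coactivator PGC-1α, had -0.07 in MuSC, -1.61 and -1.73 with TSA, and -2.77 and -3.40 with vehicle. The groups did not overlap, with differences of 3.02 ± 0.32 in MuSC (limma adjusted p = 0.00729) and 1.41 ± 0.26 with TSA (limma adjusted p = 0.0853). Its paralogue Ppargc1b had -0.51 in MuSC, -2.66 and -2.23 with TSA, and -4.61 and -3.85 with vehicle (3.72 ± 0.40 in MuSC, 1.78 ± 0.33 with TSA, limma adjusted p = 0.00775 and 0.0860). Perm1, a muscle regulator of oxidative genes, was not well above background with vehicle, and was at least 4.31-fold higher in MuSC (limma adjusted p = 0.00745). With TSA it was at least 1.24-fold higher and not called (limma adjusted p = 0.0718). The estrogen-related receptor Esrra rose by 0.98 ± 0.22 in MuSC and the mitochondrial RNA polymerase Polrmt by 0.83 ± 0.18. Tfam (0.44 ± 0.19), Nrf1 (0.15 ± 0.22) and Gabpa (0.28 ± 0.18) were not called. Of the uncoupling proteins, Ucp1, the marker of brown fat, was not well above background in any group, and Ucp2 and Ucp3 were not called in either comparison.

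The subunits encoded in mitochondrial DNA, 12 of which were measured, were compared too. In MuSC 0 were higher and 1 was lower by limma (median 0.47), where 10.5% and 11.7% of all genes were. Yet 10 of the 12 had a difference above 0 there. The MuSC array lay above both vehicle arrays for 9 and below both for 2, against 39.3% and 44% of all genes. With TSA 0 were called (median 0.76), where 2.71% of all genes were higher and 0.268% lower. At an unadjusted limma p under 0.05, 7 were higher and 0 lower with TSA, against 10.4% and 12.7% of all genes. COX1, the catalytic subunit of complex IV, had 8.06 in MuSC, 9.71 and 9.54 with TSA, and 9.16 and 9.43 with vehicle. It fell by 1.23 on the log2 scale in MuSC (SE 0.22, limma adjusted p = 0.0258) while its nuclear-encoded partners in complex IV had a median of 0.83. With TSA, ND5 of complex I had 5.17 and 4.77, against 4.08 and 3.69 with vehicle (1.08 ± 0.24, limma adjusted p = 0.112). ND1 had 4.69 and 4.45 with TSA, against 3.63 and 3.49 with vehicle (1.01 ± 0.17, limma adjusted p = 0.0756), and both TSA arrays lay above both vehicle arrays in both genes. This held for 10 of the 12, where 22.9% of all genes lay above both and 36.4% below both. ND6, the only 1 of the 12 transcribed from the other strand, lay below both. It had 1.05 and 0.82 with TSA, against 1.50 and 1.26 with vehicle (-0.45 ± 0.18, limma adjusted p = 0.241). The probe named COX2 is placed in the nuclear genome by the array files, and nuclear copies of mitochondrial genes are not told apart from them by such probes, so its values (-0.11 ± 0.19 with TSA) are uncertain.

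**Figure D4:**
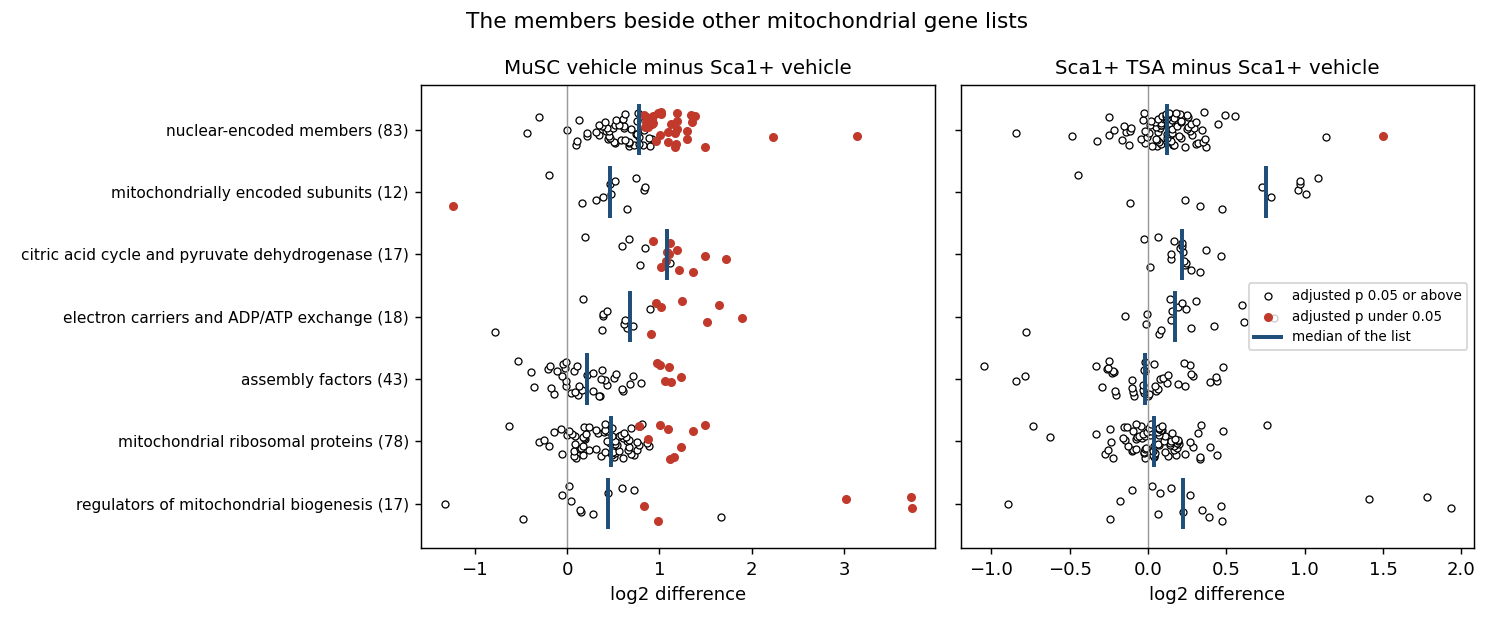
Log2 differences of the 83 nuclear-encoded members and of 6 further mitochondrial gene lists, MuSC vehicle minus Sca1+ vehicle on the left and Sca1+ TSA minus Sca1+ vehicle on the right. Points are genes, red where limma's adjusted p was under 0.05, and blue lines are list medians. In MuSC the citric acid cycle has the highest median (1.08), and with TSA the mitochondrially encoded subunits do (0.76).

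Promoter sequence was used for 69 of the 85 members. Among those without were Ndufs1, Ndufa2, Ndufb9, Sdhc, Uqcrc2, Uqcrb, Uqcrq, Cox4i2, Cox6a2, Cox8c, Ndufa4l2, Cox4i1, Cox6c, Atp5a1 and Cox4nb. Short motifs of factors known to act on respiratory genes or in muscle were searched on both strands of the 250 bases before the start. GCGCATG, a core of the NRF1 site, was found in 10 of 69 members (14.5%), against 3.24% of 32851 promoters. CCGGAAG was found in 11 (15.9%), against 6.91%, and CCAAT in 31 (44.9%), against 33.8%. AAGGTCA, bound by estrogen-related receptors, was found in 5 (7.25%), against 4.08%. CAGCTG was found in 6 (8.70%), against 13.0%, and CTATTTA, a MEF2 core, in 0, against 2.63%. The median GC content of the windows was 56.0% in the members and 52.4% in all promoters, and a match says nothing on binding in these cells.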

How the data were processed

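Per the file headers, the authors quantified spots with Agilent Feature Extraction 10.7.3.1 (protocol GE1_107_Sep09, array grid in mm9), whose processed intensity is background-subtracted within an array. A deposited table of processed log2 values was an alternative, and the method behind it is not given in the sources used here. For each array, log2 of the processed intensity was set relative to its 75th percentile over all spots but the controls. Outlier spots (0.196% to 0.334% per array) were then removed, and spots of a probe were averaged. RefSeq accessions named 26519 of the 55681 probes, a probe sharing their design name named 576, and the rest kept the array's own name. Each gene was represented by its brightest probe. Genes entered the tests if some group had them well above background on all its arrays.

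limma 3.58.1 in R 4.3.3 was fitted over all 5 arrays in 3 groups (2 residual degrees of freedom, Benjamini-Hochberg adjusted over all genes, threshold 0.05), and errors are its standard errors. The "at least" fold of a dim probe sets its group at the higher of the probe's own signal and the lowest signal well above background. Replicate numbers coincide with the 2 slides, by the array names in the labels. Vehicle 1 minus 2 and TSA 1 minus 2 correlated at 0.348 over 26074 genes, and replicates correlated at 0.987 (vehicle) and 0.989 (TSA). The fit was tested on simulated data.

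The members and gene lists were chosen with earlier results of these data known. The rule named isoform and core subunits, members called with TSA, the largest difference in each direction per complex and comparison, members whose probes disagree or lie at background, and the 2 largest differences of each other list. Further members and regulators were named after their values were seen, among them Cox5a, Ndufa10, Ndufb8, Esrra and Tfam. Alternatives were normexp background correction (offset 50, on the median spot signal, since 1 slide's files lack the mean), other scalings, filters and probe choices, the slide as a block, and each array left out. Promoters came from RefSeq (GRCm38.p6). Values of 1 member are not reported here by name, though it enters the counts and medians.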

Additional observations from a re-analysis of the deposited data

How the results depend on the processing

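Of the alternatives, none turned the sign of a called member, and the median of all members was above 0 in each that gives one. The count of members higher in MuSC, 34, was 53 with normexp background correction, 20 with median scaling and 5 with no filter on dim probes, and it ranged from 2 to 10 without 1 array. The count of 0 lower stayed at 0. The cause of these shifts was not tested. With no filter more genes were tested, and standard errors changed too. In MuSC they went from 0.19 to 0.23 for Cox7a1 and from 0.23 to 0.27 for Cox6a2. With TSA, the count higher, 1, was 5 with normexp (Cox7a1, Cox5a, Ndufb7, Sdhc and Uqcr11), 2 with median scaling, 2 with the deposited values and 0 with no filter, and ranged from 0 to 1 without 1 array. The count lower, 0, was 1 with normexp (Cox8b, -0.64). The median of members with TSA, 0.12, was 0.30 with normexp, 0.24 with quantile normalization, 0.22 with median scaling and 0.24 with the deposited values, and ranged from 0.10 to 0.16 without 1 array. Of 65 medians of a complex with TSA under the alternatives, 24 differed from the reported ones by more than the spread between replicates. The median in MuSC was 0.74 to 0.81 without 1 array. The median of all genes with TSA moved from -0.13 to -0.25 with normexp and to -0.04 with median scaling. With the slide as a replicate block, 2 members were higher with TSA and 24 in MuSC. Single MuSC members lost their call in 171 of 996 fits of a member under an alternative, gained one in 39 and kept their side of the threshold in 786. Each probe on its own, an alternative chosen after seeing the data, gave 31 of 113 probes higher in MuSC, from 28 genes. The 83 members were well above background, while Cox7b2 and Cox8c were not. A member that passes can still depend on the background correction. With normexp, the difference of Cox6a2 went from 2.22 to 1.22 in MuSC and from 1.14 to 0.44 with TSA.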
